A study of Mus musculus with 20 samples.

Results

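The 46 genes described here encode the extracellular matrix of the pancreas and proteins that mark the mesenchymal cells that make it. They were listed by gene symbol and fall into 4 classes. The fibrillar class has 21 genes: 5 fibrillar collagens, 5 other interstitial collagens and 11 genes of elastic and microfibrillar matrix. The basement membrane class has 8 genes, the proteoglycan and matricellular class 8, and the class of stellate cell and fibroblast genes 9. Each gene was read from the probe set that carries its symbol alone and kept if its signal lay above the array median on 4 or more of the 20 arrays. Of the 46, 44 had such a probe set, of 30063 genes on the array that did, and 43 passed, of 17993 genes that passed and were tested. Fbn1 and Pdgfra were not analysed here. Twist1, a transcription factor of embryonic mesenchyme, did not pass: its signals ran from 3.64 to 4.56 and lay above the median on 0 arrays. The 43 that passed lay above the median on all 20 arrays. Col5a1 had the lowest mean of the 43, and its lowest array was at 5.53, where the array median was 4.94.

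RNA came from pancreas of C57BL/6J mice in 4 groups. Inceptor-deficient (Iir-/-) mice gave 5 arrays at embryonic day 18.5 (E18.5) and 6 on the day of birth (P0), and wild-type mice gave 4 and 5. Iir is the gene now named Elapor1, and its product, inceptor, is a receptor that dampens insulin receptor signalling. The mothers of the embryos were starved for 2 h and the newborn pups for 5 h, so age and length of fasting cannot be told apart. Sample numbers 1 to 12 are all P0 and 13 to 22 all E18.5, so anything that goes with these numbers cannot be told apart from age either. Sex was not determined, and the labels do not say whether an array is 1 animal or whether litters were shared, so the p-values cover the variation among arrays, which may be in part technical. All values are log2 signals, on which a difference of 1 is a doubling. Array medians lay between 4.81 and 4.94. Elapor1 lay between 5.58 and 6.50 on the knockout arrays and between 11.07 and 12.06 on the wild-type arrays, so the labels and the targeted gene go together on all 20. Exocrine marker genes were high on every array, with a mean of 8 acinar genes between 13.13 and 14.80. Marker genes of neighbouring organs differed from array to array: 7 arrays had a mean over 7 for skeletal muscle or intestinal epithelium genes, namely knockout arrays 1, 2 and 4 and wild-type arrays 2 and 4 at E18.5 and knockout arrays 4 and 6 at P0. The mean of 12 liver genes ran from 7.003 on P0 wild-type array 5 to 13.67 on P0 knockout array 6. Values are from all 20 arrays unless stated, and the counts of members and pathway genes called between ages are also given without the 7 arrays.

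In the developing pancreas, epithelial branches grow into a loose mesenchyme whose cells later become fibroblasts, pericytes and stellate cells. These cells secrete an interstitial matrix of fibrillar collagens, fibronectin, elastic microfibrils and small leucine-rich proteoglycans. At the border of epithelium and vessels lies the basement membrane, a sheet in which laminin and type IV collagen networks are linked by nidogen. Matrix also binds growth factors of the TGF-beta family, which are themselves inducers of matrix genes, and it is remodelled by metalloproteinases and their tissue inhibitors. Matrix from mesenchyme is known to support acinar and islet growth, and stellate cells are the main source of scar matrix in the diseased pancreas.

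The promoters of members that are described below as higher at P0 are shown first, since they are the sequences next to which these transcripts start. Of the 24 genes called higher at P0 in knockouts, 14 had a promoter in the RefSeq table (GRCm38.p6). With the chromosome of Lox and Fbn2 left out, 5 of these had 1 start and no overlap with another protein-coding gene. The 4 of them with the smallest p are printed as the 250 bases before the transcript start. They are Nid1 (chr13:13437352-13437601, plus strand), Col6a1 (chr10:76726045-76726294, minus strand), Vim (chr2:13574061-13574310, plus strand) and Sparc (chr11:55420081-55420330, minus strand). Capitals mark matches, on either strand, to 6 short motifs. These are the CCAAT box, the TATA box as TATAAA, the GC box as GGGCGG, a core of SMAD sites as CAGACA, the AP-1 site as TGACTCA and the TEAD site as GGAATG.
Nid1: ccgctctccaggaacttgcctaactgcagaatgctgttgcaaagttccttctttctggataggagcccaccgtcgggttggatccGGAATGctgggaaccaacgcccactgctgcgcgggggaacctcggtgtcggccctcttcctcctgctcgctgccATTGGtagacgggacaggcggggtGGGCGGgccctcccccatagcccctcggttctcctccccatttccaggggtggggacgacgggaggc
Col6a1: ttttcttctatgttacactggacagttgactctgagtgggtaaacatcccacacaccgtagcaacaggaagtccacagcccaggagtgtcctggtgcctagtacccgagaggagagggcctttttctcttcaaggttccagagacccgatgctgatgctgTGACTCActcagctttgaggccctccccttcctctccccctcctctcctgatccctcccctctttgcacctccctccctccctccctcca
Vim: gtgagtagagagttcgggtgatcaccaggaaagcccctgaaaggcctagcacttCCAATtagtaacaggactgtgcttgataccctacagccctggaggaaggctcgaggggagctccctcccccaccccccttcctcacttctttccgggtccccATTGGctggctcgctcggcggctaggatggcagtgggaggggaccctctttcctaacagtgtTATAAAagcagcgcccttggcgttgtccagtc
Sparc: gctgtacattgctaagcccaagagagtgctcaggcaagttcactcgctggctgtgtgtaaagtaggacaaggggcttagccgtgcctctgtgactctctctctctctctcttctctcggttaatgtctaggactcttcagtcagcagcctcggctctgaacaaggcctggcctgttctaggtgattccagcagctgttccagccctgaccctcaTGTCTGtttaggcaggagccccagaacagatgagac
The 4 sequences share no single arrangement of these motifs. In Nid1 the reverse complement of CCAAT lies 91 to 87 bases before the start, a GGGCGG lies 67 to 62 and a GGAATG 165 to 160 bases before it. Col6a1 holds 1 match, TGACTCA, 90 to 84 bases before the start. Vim has a TATAAA 32 to 27 bases before its start and CCAAT at 196 to 192 and, reversed, at 94 to 90. Sparc has a reversed CAGACA at 36 to 31.

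Across the members, 28 of the 46 listed genes had 33 promoter entries. Among the 32851 promoters of the table, with the same length searched and none of the motifs contained in another, CCAAT was held by 33.8%, against 9 of the 33 member promoters. GGGCGG was held by 32.7%, against 18 of 33, and TATAAA by 12.4%, against 7 of 33 (of Col3a1, Ogn, Postn, Tnc, Twist1 and Vim). CAGACA was held by 17.1% and 9 of 33, GGAATG by 12.6% and 5 of 33, and TGACTCA by 4.46% and 2 of 33 (Col6a1 and Tnxb). The member promoters were richer in G and C, with a median of 58.4% against 52.4% in the table, which by itself alters how often such motifs occur. A match is a description of the letters only.

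Mean signals of the 4 classes ranked the ages the same way. Over the 43 genes, the mean per array lay between 9.20 and 9.43 in E18.5 wild types, 8.83 and 9.27 in E18.5 knockouts, 9.50 and 9.75 in P0 wild types, and 9.38 and 9.87 in P0 knockouts. Within each genotype the P0 arrays therefore all lay above the E18.5 arrays. The proteoglycan and matricellular class was the same: 12.23 to 12.45 in E18.5 and 12.61 to 12.84 in P0 wild types, and 11.72 to 12.20 and 12.29 to 13.11 in knockouts. For the basement membrane class the ranges were 8.27 to 8.41 and 8.46 to 8.83 in wild types, and 7.996 to 8.40 and 8.47 to 8.75 in knockouts, again without overlap. The fibrillar class overlapped in wild types (8.66 to 8.94 at E18.5, 8.90 to 9.22 at P0) but not in knockouts (8.26 to 8.75 and 8.79 to 9.32). The stellate class also overlapped in wild types, with 8.28 to 8.66 and 8.64 to 9.01, and not in knockouts, with 8.09 to 8.48 and 8.57 to 8.99. In bulk RNA, more mesenchymal cells and more matrix RNA per cell cannot be told apart. The mean of 8 acinar genes was 14.52 at E18.5 and 13.75 at P0 in wild types, and 14.59 and 13.42 in knockouts. The part of this acinar fall in the higher P0 signals of the members was not tested.

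**Figure D1:**
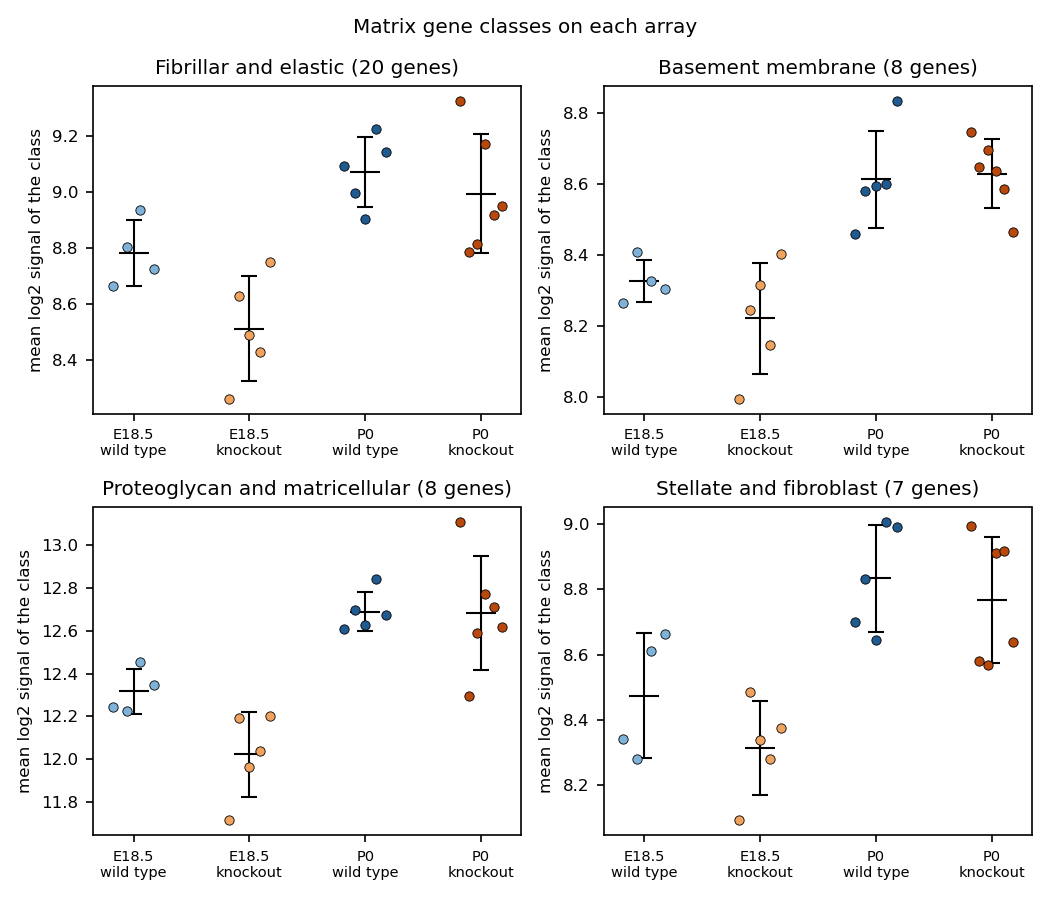
Mean log2 signal of the tested genes of each class on each of the 20 arrays, grouped by age and genotype; each point is 1 array, the horizontal mark is the group mean and the bar its SD. The P0 arrays lie above the E18.5 arrays of the same genotype for the basement membrane and proteoglycan classes, and E18.5 knockout array 1 is the lowest point in all 4 panels.

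Differences between P0 and E18.5 were tested within each genotype in one limma model over the 20 arrays, with Benjamini-Hochberg adjustment over the 17993 genes and a call at an adjusted p under 0.05. In wild types, 8 of the 43 members were higher at P0 and 0 lower, beside 4.76% of all genes called higher and 4.10% called lower. The 8 were Fn1 and Mfap5 of the fibrillar class, Lama2, Lamc1 and Nid1 of the basement membrane, Ogn and Postn of the proteoglycan class, and Mmp2 of the stellate class. In knockouts, 24 of 43 were higher and 0 lower, beside 11.3% and 11.7% of all genes. They comprised 11 of 20 fibrillar, 4 of 8 basement membrane, 6 of 8 proteoglycan and 3 of 7 stellate genes. In each genotype 38 of the 43 differences were above 0, beside 51.2% of all genes in wild types and 49.3% in knockouts. The median difference of the members was 0.30 in wild types, with 0.006 for all genes, and 0.42 in knockouts, with -0.004 for all genes. All 8 genes called in wild types were also called in knockouts, which is 100% of the wild-type and 33.3% of the knockout list. Over all genes, 1209 were called in the same direction in both, 75.8% of the wild-type and 29.2% of the knockout calls. The genotypes share no arrays in these contrasts but share one estimate of the spread.

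The number of calls was sensitive to single arrays in wild types. It was 3 without E18.5 wild-type array 1 or 2, and 5 without E18.5 wild-type array 4 or P0 wild-type array 1, 4 or 5. Without the 7 arrays rich in muscle or intestinal genes, 1 member was called in wild types and 0 in knockouts, while all genes called fell to 271 and 141; 37 and 39 of the 43 differences were then above 0, with medians of 0.29 and 0.33. The 1 was Mfap5, at 1.60 (adjusted p = 0.0443). Only wild-type arrays 1 and 3 and knockout arrays 3 and 5 are then left at E18.5. The smaller number of arrays and the removal of marker-rich arrays cannot be told apart in this loss of calls. The 24 genes called in knockouts on all arrays were then all above 0, with adjusted p from 0.0507 for Tnxb to 0.672 for Col5a1. Several were much smaller, among them Mfap5 at 1.08, Vim at 0.41, Col3a1 at 0.38, Fbln2 at 0.22, Sparc at 0.19 and Col5a1 at 0.11, while Fn1 was at 1.28, Postn at 1.11, Lama2 at 0.94 and Tnxb at 0.52. The mean of 7 intestinal epithelium genes lay between 5.97 and 9.50 in E18.5 and 5.25 and 6.32 in P0 wild types, and between 6.63 and 10.61 and 5.73 and 7.65 in knockouts. Of these 7 genes, 1 was called lower at P0 in wild types and 2 in knockouts. Of 12 liver genes, 12 were below 0 in wild types (median -1.74, with array means of 9.80 to 12.26 at E18.5 and 7.003 to 11.82 at P0). In knockouts 11 of 12 were above 0 (median 0.74, with 9.32 to 13.09 and 9.33 to 13.67). With the liver mean as a covariate, 5 members were called in wild types and 24 in knockouts.

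**Figure D2:**
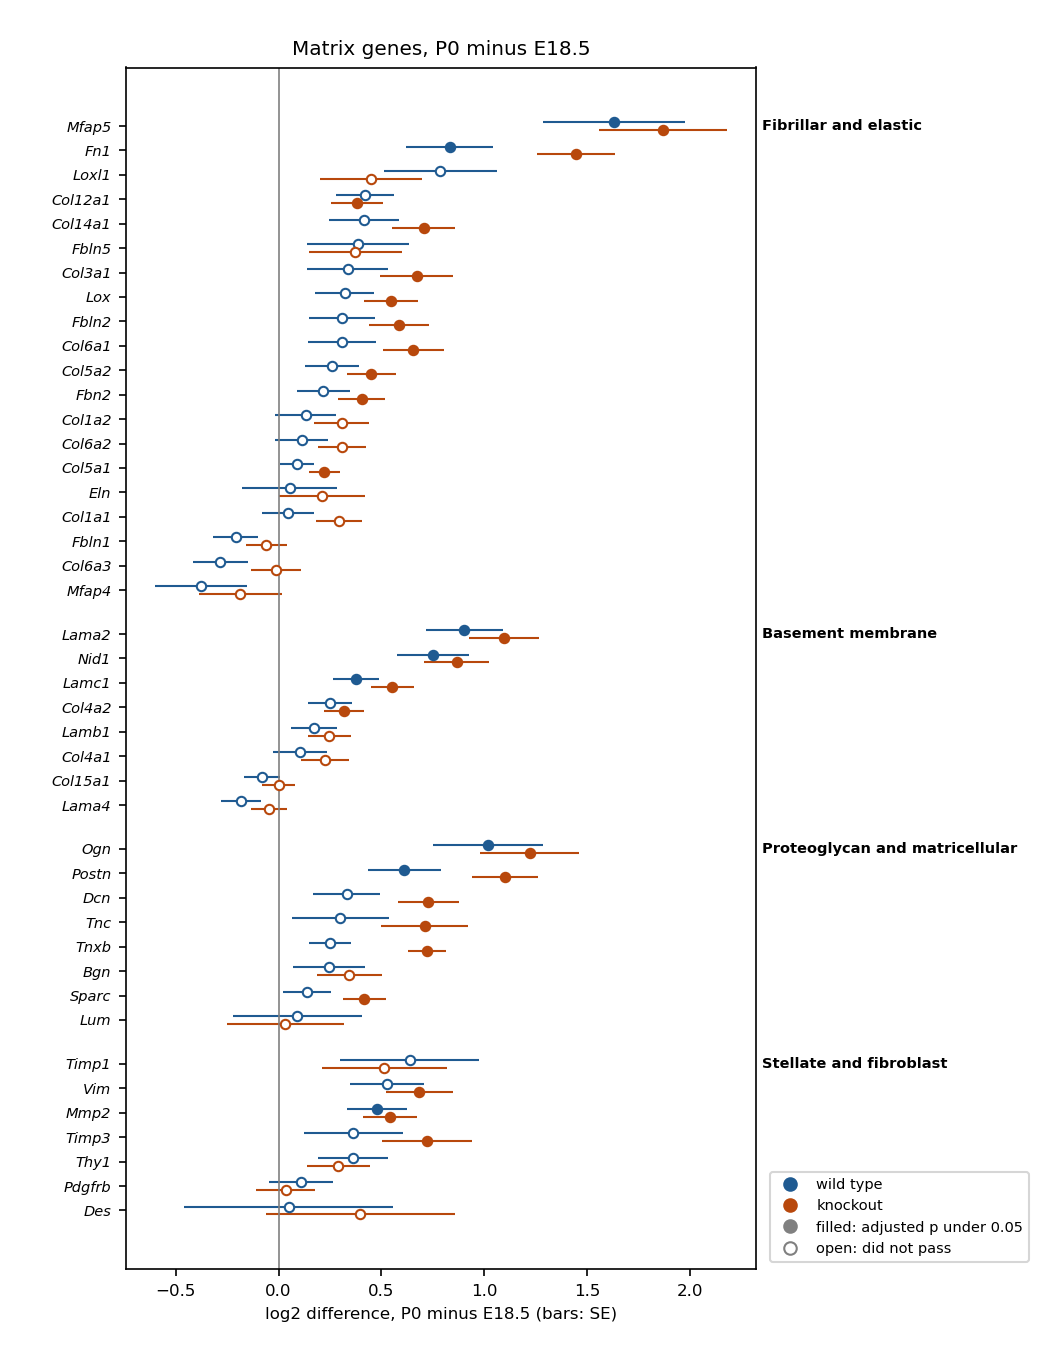
Log2 difference between P0 and E18.5 for each of the 43 tested members, by class, in wild types and knockouts, with bars of 1 SE; filled points passed an adjusted p of 0.05 in limma. Mfap5 has the largest difference in both genotypes (1.63 and 1.87), and more points are filled in knockouts (24) than in wild types (8).

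Among basement membrane genes, Lama2, the laminin alpha 2 chain, was at 7.15, 7.20, 7.22 and 7.30 in E18.5 wild types and at 7.71, 7.84, 7.94, 8.39 and 8.72 in P0 wild types. In knockouts it was at 6.81, 7.04, 7.08, 7.23 and 7.51 at E18.5 and ran from 7.79 over a median of 8.28 to 8.56 at P0. No P0 array overlapped an E18.5 array of its genotype. Lama2 rose by 0.90 ± 0.19 (SE) in wild types (1.87-fold, adjusted p = 0.00705) and by 1.10 ± 0.17 in knockouts (2.14-fold, adjusted p = 0.000257).

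Nid1, the nidogen that links laminin to type IV collagen, lay at 10.03, 10.12, 10.13 and 10.17 in E18.5 wild types and at 10.44, 10.62, 10.83, 10.97 and 11.45 in P0 wild types. In knockouts it lay at 9.46, 9.69, 9.96, 10.06 and 10.26 at E18.5 and ran from 10.47 over 10.78 to 10.98 at P0. The ages were separate in both genotypes, and P0 wild-type array 5 was the highest of all 20 arrays. The rise was 0.75 ± 0.18 in wild types (adjusted p = 0.0139) and 0.87 ± 0.16 in knockouts (adjusted p = 0.000875). Lamc1, the gamma 1 chain present in most laminins, was at 0.38 ± 0.11 (adjusted p = 0.047) and 0.55 ± 0.10 (adjusted p = 0.001). Its wild-type call was lost in 16 of the 20 fits that left out 1 array, and its adjusted p lay between 0.0137 and 0.173 over all alternatives. Its E18.5 signals of 10.16 to 10.36 in wild types and 9.75 to 10.44 in knockouts lay below the P0 signals of 10.52 to 10.79 and 10.48 to 10.87.

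Lama4 and Lamb1, the other laminin chains listed, did not pass in either genotype. Lama4, the alpha chain of vessel and mesenchymal basement membranes, differed by -0.18 ± 0.10 in wild types (adjusted p = 0.263) and -0.04 ± 0.09 in knockouts, and Lamb1 by 0.17 ± 0.11 and 0.25 ± 0.10 (adjusted p = 0.378 and 0.0915). The 2 type IV collagen chains lie next to each other on chromosome 8. Col4a2 was called in knockouts, at 0.32 ± 0.10 (adjusted p = 0.0249) against 0.25 ± 0.11 in wild types (adjusted p = 0.161), and its knockout signals did not overlap between ages (5.86 to 6.13 and 6.16 to 6.72). Col4a1 differed by 0.11 ± 0.13 and 0.23 ± 0.12 and Col15a1, a collagen of basement membrane zones, by -0.08 ± 0.09 and 0 ± 0.08, and none of these passed the test.

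Of the elastic and microfibrillar genes, Mfap5, which encodes a microfibril-associated glycoprotein, had the highest difference of the 43 members in both genotypes. Its signals were 11.93, 12.30, 12.59 and 12.85 in E18.5 wild types and 13.66, 13.77, 14.004, 14.12 and 14.68 in P0 wild types. In E18.5 knockouts they were 10.67, 11.35, 11.85, 12.07 and 13.02, and at P0 they ran from 13.06 over 13.72 to 14.06. Both genotypes were separated by age, though knockout array 5 at E18.5, at 13.02, lay close to the lowest P0 knockout. Mfap5 rose by 1.63 ± 0.35 in wild types (3.10-fold, adjusted p = 0.00808) and by 1.87 ± 0.31 in knockouts (3.65-fold, adjusted p = 0.000495).

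Fn1, fibronectin, on which collagen fibrils are assembled, was at 10.96, 11.17, 11.29 and 11.66 in E18.5 wild types and at 11.66, 11.91, 12.20, 12.31 and 12.45 in P0 wild types. In knockouts it was at 10.14, 10.35, 10.54, 10.63 and 11.004 at E18.5 and ran from 11.59 over 12.01 to 12.41 at P0. The highest E18.5 wild type met the lowest P0 wild type, whereas the knockout groups lay well apart. The rise was 0.83 ± 0.21 in wild types (adjusted p = 0.0203, and 0.0108 to 0.211 over the alternatives) and 1.45 ± 0.19 in knockouts (adjusted p = 7.84e-05). Lox, which cross-links collagen and elastin, Fbln2 and Fbn2, the fibrillin of developing microfibrils, were called in knockouts, at 0.55 ± 0.13, 0.59 ± 0.15 and 0.40 ± 0.11 (adjusted p = 0.00581, 0.00744 and 0.0162). In wild types they differed by 0.32 ± 0.14, 0.31 ± 0.16 and 0.22 ± 0.13, which did not pass. None of these genes passed the test of the difference between genotypes, given below.

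The remaining elastic genes did not pass in either genotype. Loxl1 differed by 0.79 ± 0.27 in wild types (adjusted p = 0.0808) and 0.45 ± 0.25 in knockouts, and Fbln5, a fibulin that guides elastin onto microfibrils, by 0.39 ± 0.25 and 0.37 ± 0.23. Eln, elastin itself, differed by 0.05 ± 0.23 in wild types and 0.21 ± 0.21 in knockouts. Mfap4 and Fbln1 were the 2 elastic genes below 0, at -0.38 ± 0.22 and -0.21 ± 0.11 in wild types, and Fbln1 was the 1 member whose P0 wild-type signals (7.07 to 7.28) all lay below those at E18.5 (7.30 to 7.57). Of all genes, 5.36% were separated in that direction and 6.24% in the other, in which 13 members were. In knockouts 15 members were separated upward and 0 downward, beside 5.90% and 6.55% of all genes.

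The fibrillar collagens, the subunits of types I, III and V, were called in knockouts for 3 of 5 genes and in wild types for 0 of 5. Col3a1, the type III chain, was at 10.77, 10.82, 10.99 and 11.05 in E18.5 wild types and at 11.02, 11.08, 11.20, 11.30 and 11.62 at P0. In knockouts it was at 10.01, 10.70, 10.78, 10.94 and 11.01 at E18.5 and ran from 10.81 over 11.51 to 11.64 at P0. The ages overlapped in both genotypes, and the difference was 0.34 ± 0.20 in wild types (adjusted p = 0.313) and 0.67 ± 0.18 in knockouts (adjusted p = 0.0108). Its neighbour on chromosome 1, Col5a2, rose in knockouts by 0.45 ± 0.12 (adjusted p = 0.0107) and Col5a1 by 0.22 ± 0.07 (adjusted p = 0.0395).

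The type I chains Col1a1 and Col1a2, which make the main fibrils of connective tissue, did not pass. They differed by 0.05 ± 0.12 and 0.13 ± 0.15 in wild types and by 0.29 ± 0.11 and 0.31 ± 0.13 in knockouts (adjusted p = 0.0672 and 0.112). Col1a1 signals of 9.03 to 9.35 in E18.5 and 9.23 to 9.43 in P0 wild types overlapped widely. Among the other interstitial collagens, Col14a1 and Col12a1, which coat fibril surfaces, and Col6a1, a chain of beaded microfibrils, rose in knockouts by 0.70 ± 0.15, 0.38 ± 0.13 and 0.65 ± 0.15 (adjusted p = 0.00308, 0.0375 and 0.00421). Their wild-type differences were 0.42 ± 0.17, 0.42 ± 0.14 and 0.31 ± 0.16 and did not pass, although Col12a1 and Col14a1 were separated between ages there. The chains of type VI collagen differed among themselves: Col6a2 was at 0.31 ± 0.12 in knockouts (adjusted p = 0.0628) and Col6a3 at -0.01 ± 0.12.

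In the proteoglycan and matricellular class, Ogn, osteoglycin, a small leucine-rich proteoglycan, was at 11.29, 11.81, 12.22 and 12.60 in E18.5 wild types and at 12.62, 12.86, 12.99, 13.13 and 13.39 in P0 wild types. In knockouts it was at 11.49, 11.59, 11.94, 12.09 and 12.17 at E18.5 and ran from 12.38 over 13.06 to 13.78 at P0. The wild-type groups just missed each other and the knockout groups were separate. Ogn rose by 1.02 ± 0.27 (2.02-fold, adjusted p = 0.0251, and 0.0107 to 0.0999 over the alternatives) and by 1.22 ± 0.24 (2.33-fold, adjusted p = 0.00158).

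Postn, periostin, a matricellular protein that binds collagen and fibronectin, was at 13.56, 13.62, 13.63 and 13.92 in E18.5 wild types and at 13.98, 14.22, 14.35, 14.43 and 14.49 in P0 wild types. In knockouts it was at 12.85, 13.16, 13.41, 13.44 and 13.47 at E18.5 and ran from 13.90 over 14.30 to 15.03 at P0. The ages did not overlap in either genotype. Postn rose by 0.61 ± 0.18 (adjusted p = 0.0401) and by 1.10 ± 0.16 (adjusted p = 0.000171). The wild-type call was lost in 7 of the 20 fits that left out 1 array, with an adjusted p of 0.0132 to 0.305 over all alternatives.

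Tnxb, tenascin X, which organises collagen fibrils, had the smallest p of the members in knockouts. It was at 5.85, 6.06, 6.25, 6.33 and 6.40 in E18.5 knockouts and ran from 6.74 over 6.88 to 7.08 at P0, with no overlap and a rise of 0.72 ± 0.09 (adjusted p = 5.98e-05). In wild types it was at 6.59, 6.63, 6.64 and 6.68 and at 6.76, 6.82, 6.87, 6.97 and 7.004, also separate, with a difference of 0.25 ± 0.10 that did not pass (adjusted p = 0.135). Dcn, decorin, was called in knockouts, at 0.73 ± 0.15 (adjusted p = 0.00202), as were Tnc, the tenascin of remodelling tissue, at 0.71 ± 0.21 (adjusted p = 0.0211), and Sparc, a collagen-binding matricellular protein, at 0.42 ± 0.11 (adjusted p = 0.00808). In knockouts, Sparc signals at P0 ran from 17.09 to 17.45, above each E18.5 array. Decorin's neighbour on chromosome 10, Lum, encodes the related proteoglycan lumican and differed by 0.09 ± 0.31 and 0.03 ± 0.28, and Bgn, biglycan, by 0.24 ± 0.18 and 0.34 ± 0.16. Lumican had a wide spread at P0, with 12.73 to 13.90 in wild types and 12.17 to 14.24 in knockouts.

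In the stellate class, Mmp2, a gelatinase secreted by fibroblasts, was at 7.85, 7.86, 8.01 and 8.05 in E18.5 wild types and at 7.96, 8.43, 8.45, 8.64 and 8.64 in P0 wild types. In knockouts it was at 7.72, 7.91, 8.08, 8.11 and 8.23 at E18.5 and ran from 8.31 over 8.53 to 8.88 at P0. P0 wild-type array 3 overlapped the E18.5 wild types, and the knockout groups were separate. Mmp2 rose by 0.48 ± 0.15 (adjusted p = 0.0471) and 0.54 ± 0.13 (adjusted p = 0.0065). Its wild-type call was lost in 12 of the 20 fits that left out 1 array, with an adjusted p of 0.0162 to 0.222 over all alternatives.

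Vim, vimentin, the intermediate filament of mesenchymal cells, rose in knockouts by 0.68 ± 0.16 (adjusted p = 0.00578). In wild types its difference was 0.53 ± 0.18 (adjusted p = 0.077), with signals of 14.44 to 14.73 at E18.5 and 14.78 to 15.57 at P0 that did not overlap. Timp3, an inhibitor of metalloproteinases that stays bound to matrix, rose in knockouts by 0.72 ± 0.22 (adjusted p = 0.0227), from 8.24 to 8.45 at E18.5 to 8.86 to 9.38 at P0. Its difference in wild types was 0.36 ± 0.24, where P0 signals were spread from 8.23 to 9.91. Timp3 and Timp1 lie inside the spans of the synapsin genes Syn3 and Syn1, as Ogn does in Cenpp. Timp1, Thy1, a surface protein of fibroblasts, Pdgfrb, the receptor by which pericytes respond to PDGF, and Des, desmin, did not pass in either genotype, with Pdgfrb at 0.11 ± 0.16 and 0.03 ± 0.14.

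**Figure D3:**
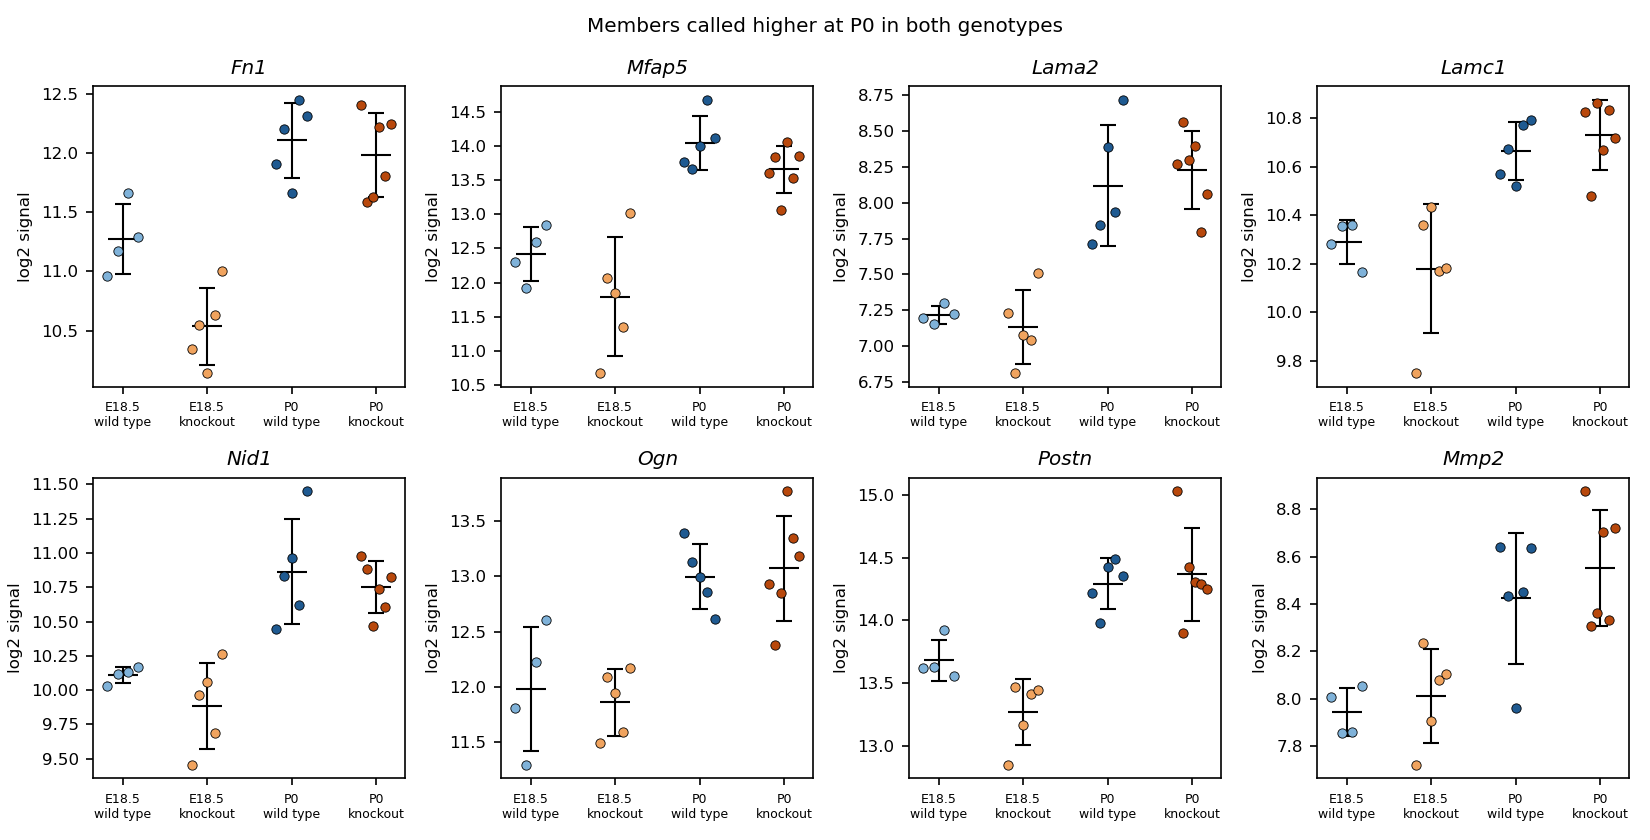
Log2 signal of the 8 members called higher at P0 in both genotypes on each array, with a panel for each gene; points are arrays, the horizontal mark is the group mean and the bar its SD. Lama2, Lamc1, Nid1, Ogn, Postn and Mfap5 have no overlap between ages in either genotype, and Fn1 and Mmp2 overlap in wild types.

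The comparison of knockout with wild type asks whether the absence of inceptor is accompanied by other matrix expression. At E18.5, 0 of the 43 members were called, beside 0.0111% of all genes (2 of 17993). At an unadjusted p under 0.05 there were 7 members and 980 of all genes. The differences nonetheless lay mostly on the same side: 41 of 43 were below 0, beside 43.0% of all genes, with a median of -0.19 against 0.02. All 20 fibrillar, 8 basement membrane and 8 proteoglycan genes were below 0, and 5 of 7 stellate genes, Mmp2 and Pdgfrb being the exceptions. Members measured on the same arrays are not independent of each other, so this count is a description of these 9 arrays.

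The smallest p belonged to Tnxb, whose E18.5 knockout signals (5.85 to 6.40) all lay below those of wild types (6.59 to 6.68), with a difference of -0.46 ± 0.10 (unadjusted p = 0.000284, adjusted p = 0.491). Fn1, with 10.14 to 11.004 in knockouts and 10.96 to 11.66 in wild types, overlapped by a single array and differed by -0.74 ± 0.21 (adjusted p = 0.686). Postn, Col6a1 and Col5a1 were also lower without overlap, at -0.42 ± 0.18, -0.33 ± 0.16 and -0.19 ± 0.08 (adjusted p = 0.911, 0.921 and 0.911). With Tnxb these make 4 members, beside 0.706% of all genes, and 0 were separated upward, beside 1.74%. Of the basement membrane genes, Nid1 and Lama4 differed by -0.23 ± 0.18 and -0.13 ± 0.10, and of the stellate genes Des and Vim by -0.60 ± 0.51 and -0.22 ± 0.18, none passing.

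E18.5 knockout array 1 was the lowest of its group for 27 of the 43 members, where the same array was the lowest for 32.0% of all genes. It was the lowest of all 20 arrays for 23 members, a count not made over all genes. Without it, 40 of 43 differences were below 0 and the median was -0.13. This array also had a mean of 7 skeletal muscle genes of 7.79, where the other E18.5 knockouts lay at 5.24 to 5.88. Without the 7 arrays rich in muscle or intestinal genes, 31 were below 0 and the median was -0.08. This compares only knockout arrays 3 and 5 with wild-type arrays 1 and 3. Markers of some other cells, but not of all, were also mostly below 0, with 0 called. These were 15 of 16 smooth muscle and pericyte genes, 9 of 10 mesothelial genes and 11 of 12 macrophage and leukocyte genes, with medians of -0.18, -0.30 and -0.13. Their means per array were 7.52 to 9.14 in knockouts and 7.48 to 9.70 in wild types for smooth muscle, at 7.51 to 7.81 and 7.77 to 8.20 for mesothelium, and at 6.85 to 7.68 and 7.39 to 7.55 for macrophages and leukocytes. Below 0 were also 10 of 13 endothelial and 5 of 8 Schwann cell genes. Other lists lay mostly above 0: 6 of 7 duct, 6 of 7 skeletal muscle, 6 of 8 acinar, 8 of 11 islet and 4 of 6 erythroid genes. Liver genes were below 0 for 10 of 12 (9.32 to 13.09 in knockouts, 9.80 to 12.26 in wild types) and intestinal genes above 0 for 7 of 7. The part of these lists in the difference of the members was not tested.

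At P0, 0 of 43 members were called, beside 0.0111% of all genes. An unadjusted p under 0.05 was found for 2 members and for 1576 of all 17993 genes. The differences were divided, with 21 above and 22 below 0 (47.9% of all genes were below 0) and a median of -0.001. This split depended on the scaling: 12 were above and 30 below 0 after another quantile normalization, 18 and 25 after cyclic loess, and 26 and 17 with arrays centred on their medians. It was also 26 and 17 with the liver mean as a covariate. Of 12 liver genes, 12 were above 0 (median 1.83, with array means of 9.33 to 13.67 in knockouts and 7.003 to 11.82 in wild types). Of the other cell lists, also with 0 called, 15 of 16 smooth muscle and pericyte genes were below 0 (median -0.135). So were 9 of 13 endothelial and 8 of 12 macrophage and leukocyte genes. Above 0 were 7 of 7 skeletal muscle, 7 of 8 Schwann cell, 5 of 6 erythroid and 5 of 7 duct genes. The same held for 7 of 11 islet, 6 of 10 mesothelial, 4 of 7 intestinal and 4 of 8 acinar genes. The part of these lists in the differences of the members was not tested. Loxl1, a lysyl oxidase needed for elastic fibres, was at 9.07, 9.44, 9.62, 9.64 and 10.75 in wild types and ran from 8.48 over 9.04 to 9.67 in knockouts. The groups overlapped, and the difference was -0.68 ± 0.25 (adjusted p = 0.485), or -0.42 without P0 wild-type array 4, the array at 10.75. Col12a1 differed by -0.31 ± 0.13 (adjusted p = 0.549). No member was separated between genotypes at P0, beside 0.272% of all genes upward and 0.239% downward. The basement membrane genes with the smallest p were Nid1, at -0.11 ± 0.16, and Lama2, at 0.11 ± 0.17, in the proteoglycan class Lum, at -0.19 ± 0.28, and Sparc, at 0.07 ± 0.11, and in the stellate class Thy1, at -0.19 ± 0.15, and Mmp2, at 0.13 ± 0.13. None of them passed. P0 knockout array 1 was the highest of its group for 24 of the 43 members, beside 19.5% of all genes. Without it, 31 of 43 differences were below 0.

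**Figure D4:**
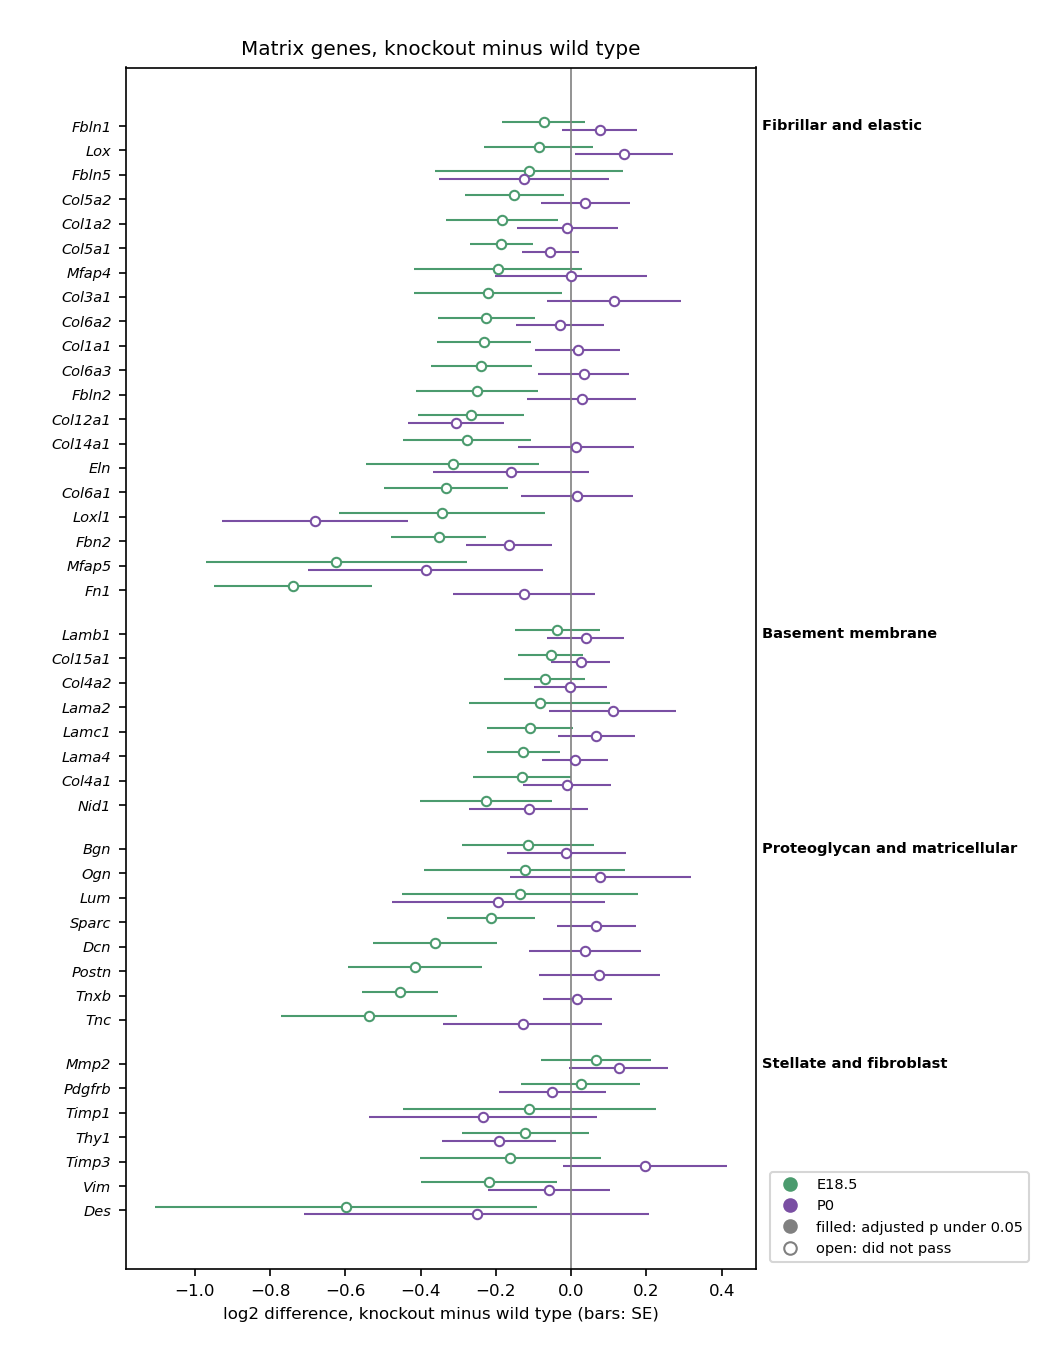
Log2 difference between knockout and wild type for each of the 43 tested members at E18.5 and P0, with bars of 1 SE; all points are open because none passed an adjusted p of 0.05 in limma. At E18.5, 41 of 43 points lie below 0, and at P0, 22 of 43.

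Averaged over both ages, 0 members were called, beside 0.0167% of all genes. An unadjusted p under 0.05 was found for 8 of the 43 members and for 1180 of all 17993 genes. Of the 43 differences, 37 were below 0, beside 43.1% of all genes. Whether the knockout effect differed between ages was tested by the interaction in the same model. It was called for 0 members, beside 0% of all genes, with 2 members and 1256 of all genes at an unadjusted p under 0.05. The 2 were Tnxb, at 0.47 ± 0.14 (adjusted p = 0.518), and Fn1, at 0.61 ± 0.28 (adjusted p = 0.705). The interaction was above 0 for 36 members, beside 47.0% of all genes, with a median of 0.19. The same test compares the rise with age between genotypes, so the larger number of calls in knockouts (24 against 8) is not shown to be a difference between genotypes. The knockout groups also held more arrays than the wild-type groups.

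The members differed in how tightly they were held within groups. The mean of the 4 group SDs was 0.11 for Col5a1, 0.13 for Col15a1 and Tnxb and 0.14 for Sparc, and was 0.50 for Mfap5 and Timp1 and 0.77 for Des. Individual arrays stood out across classes: P0 knockout array 1 was the highest of all 20 arrays for 11 members, among them Dcn (16.96), Lum (14.24), Postn (15.03) and Tnc (8.004). P0 wild-type array 5 was the highest for 9, among them Nid1, Eln (10.60), Pdgfrb (8.36) and Timp3 (9.91). P0 knockout array 4, whose skeletal muscle mean was 8.28, was the highest for 8, among them Col1a1 (9.58), Ogn (13.78), Lox (10.08) and Vim (15.67). How often these arrays were the highest of all 20 over all genes was not computed.

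Desmin, the muscle-type intermediate filament that also marks stellate cells, had the widest spread, and its signals are set here beside the mean of 16 smooth muscle and pericyte genes. On the arrays with the lowest means, Des was at 6.01 with a mean of 7.52 in E18.5 knockout array 5, 6.06 with 7.48 in E18.5 wild-type array 2, and 5.76 with 7.48 in P0 knockout array 2. The array with the highest mean, P0 knockout array 5 at 10.01, had the highest Des signal, 8.57. E18.5 wild-type arrays 3 and 4 followed, with Des at 7.85 and 8.03 and means of 9.70 and 9.68. The order was loose: Des was also low on arrays with higher means, at 6.16 with 8.63 in E18.5 knockout array 1 and at 6.33 with 8.33 in P0 knockout array 1. Both ages and genotypes were found at the low end and at the high end. The age difference of Des was 0.05 ± 0.51 in wild types and 0.40 ± 0.46 in knockouts, and no smooth muscle gene of the 16 was called in either.

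**Figure D5:**
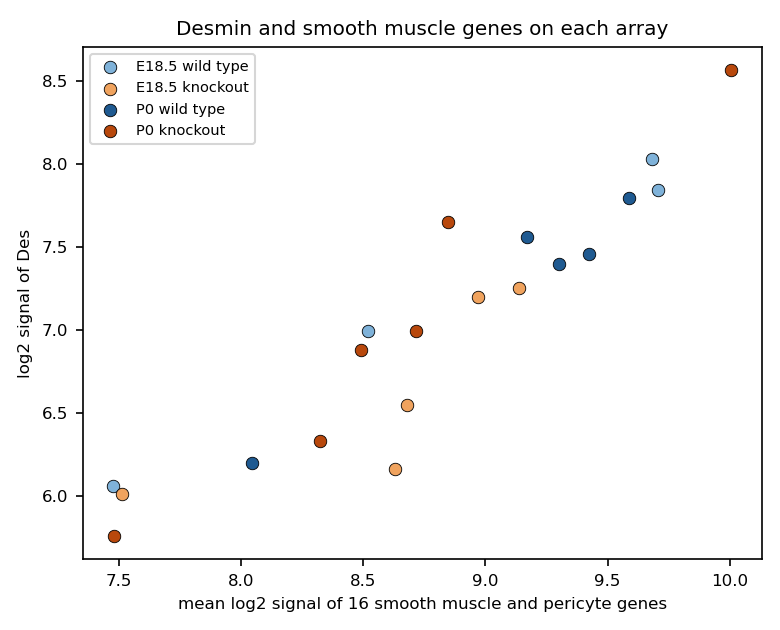
Log2 signal of Des against the mean log2 signal of 16 smooth muscle and pericyte genes on the same array; each point is 1 of the 20 arrays, coloured by age and genotype. Des is between 5.76 and 6.20 on the arrays with means of 7.48 to 8.05 and at 8.57 on the array with a mean of 10.01, but also low, at 6.33 and 6.16, on arrays with means of 8.33 and 8.63. The groups are mixed along the axis.

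Genes that act on the matrix were followed with lists drawn up from general knowledge. Matrix proteases and their inhibitors were called higher at P0 for 3 of 21 genes in wild types and 12 of 21 in knockouts, and lower for 0 in both, beside 4.76% and 11.3% of all genes called higher. Without the 7 arrays rich in muscle or intestinal genes, 1 was called in each, Timp2. Timp2, an inhibitor related to Timp3, rose by 0.61 ± 0.09 and 0.75 ± 0.08 (adjusted p = 0.00124 and 2.36e-05), and Adamts5, a protease that cuts proteoglycans, by 0.95 ± 0.24 and 1.35 ± 0.22 (adjusted p = 0.0224 and 0.000413). Reck, a membrane-bound inhibitor of metalloproteinases, rose by 0.34 ± 0.07 and 0.47 ± 0.06, and Ctsk, a collagen-degrading cathepsin, 2.64-fold in knockouts (adjusted p = 0.00662).

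Of 22 genes of collagen synthesis and processing, 0 were higher and 3 lower at P0 in wild types, beside 4.76% and 4.10% of all genes, and 2 higher and 6 lower in knockouts, beside 11.3% and 11.7%. The median difference was -0.05 in wild types and -0.12 in knockouts. Without the 7 arrays, 1 was lower in wild types, P4ha1, and 0 were called in knockouts. P4ha1 and P4ha2, catalytic subunits of collagen prolyl hydroxylase, fell by 0.96 ± 0.28 and 0.47 ± 0.10 in wild types (adjusted p = 0.0408 and 0.00663). In knockouts they fell by 0.99 ± 0.25 and 0.52 ± 0.09 (adjusted p = 0.0087 and 0.000499). Plod2, a lysyl hydroxylase, fell in wild types by 0.50 ± 0.13 (adjusted p = 0.0221). P4hb and Ppib, which fell in knockouts by 0.73 ± 0.18 and 0.80 ± 0.17, are general folding enzymes of the endoplasmic reticulum that acinar cells also use. The acinar marker list was called lower for 3 of 8 genes in wild types and 4 of 8 in knockouts, with means per array of 14.22 to 14.78 at E18.5 and 13.25 to 13.99 at P0 in wild types, and 14.47 to 14.80 and 13.13 to 13.65 in knockouts. Cpa1 and Cel of this list differed by 0 in both genotypes without the 7 arrays. The deposited signals have a ceiling of 19.932, at which 261 to 278 probe sets lay on each array. A gene at this ceiling on every array differs by 0 whatever its RNA level. An exact 0 is therefore not shown to be an unchanged gene, and whether Cpa1 and Cel lay at the ceiling was not tested. Such differences of 0 make the fall of a list mean smaller. The part of the acinar list in the falls of the collagen synthesis genes was not tested.

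Of 30 genes of the TGF-beta pathway, 5 were higher and 0 lower in wild types, beside 4.76% and 4.10% of all genes, and 11 higher and 2 lower in knockouts, beside 11.3% and 11.7%. These percentages hold for the other lists too. Without the 7 arrays, 0 genes were called in either genotype among the TGF-beta, matrix receptor and transcription factor lists, and 1 growth factor in knockouts, Pdgfc. Tgfbi, a secreted matrix protein induced by TGF-beta, rose by 1.12 ± 0.31 and 1.55 ± 0.28 (adjusted p = 0.0321 and 0.000857). The receptor Tgfbr2 rose by 0.94 ± 0.18 and 0.96 ± 0.16 (adjusted p = 0.00486 and 0.000524) and the co-receptor Tgfbr3 by 0.62 ± 0.18 and 0.77 ± 0.16 (adjusted p = 0.0406 and 0.00271). Of 22 matrix receptors, 1 was higher in wild types, Sdc4, a syndecan that binds fibronectin, at 0.60 ± 0.14 (adjusted p = 0.0121). In knockouts 4 were higher, with Sdc4 at 0.69 ± 0.12, and 2 lower, with the collagen receptor Itga2 at -1.07 ± 0.19 (adjusted p = 0.000667). Of 20 growth factors of stroma, 1 was higher and 1 lower in wild types, and 2 were higher and 2 lower in knockouts, near the shares of all genes. Pdgfc, a ligand of PDGF receptors, rose by 0.68 ± 0.16 and 1.03 ± 0.14 (adjusted p = 0.0138 and 0.00012). Vegfa, the endothelial growth factor, fell by 0.92 ± 0.20 and 0.73 ± 0.18 (adjusted p = 0.0101 and 0.00821). Of 21 mesenchymal transcription factors, 0 were higher in either genotype, while Meox1 fell in both, by 0.59 ± 0.18 and 0.66 ± 0.16 (adjusted p = 0.0475 and 0.00706), and Snai2 in knockouts by 0.63 ± 0.20 (adjusted p = 0.0339). In the genotype comparisons 0 genes of these lists were called at either age.

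Markers of other cells in and around the mesenchyme were also compared between ages. Of 16 smooth muscle and pericyte genes and 13 endothelial genes, 0 were called in either genotype. Of 10 mesothelial genes 0 were called in wild types, and 2 were higher and 1 lower in knockouts. Mean mesothelial signal lay between 7.77 and 8.20 in E18.5 and 7.85 and 8.78 in P0 wild types, and between 7.51 and 7.81 and 7.65 and 8.84 in knockouts. Of 12 macrophage and leukocyte genes, 1 was higher and 2 lower in wild types, and 4 higher and 1 lower in knockouts, with the same percentages of all genes called, and with array means of 7.39 to 7.55 and 7.48 to 7.81 in wild types and 6.85 to 7.68 and 7.34 to 7.73 in knockouts. Without the 7 arrays, 1 gene of these 4 lists was called, the macrophage gene Cd68 in wild types. Of 3 adipocyte genes, 1 was called higher in each genotype. Of 8 Schwann cell genes, 2 were lower in wild types, and 2 were higher and 2 lower in knockouts. All genes were called higher and lower for 4.76% and 4.10% in wild types, and 11.3% and 11.7% in knockouts. Without the 7 arrays, 1 gene of these lists was called, the Schwann cell gene Fabp7, lower in wild types. The part of all these cell lists in the age differences of the members was not tested.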

How the data were processed

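RNA of 20 mouse pancreas samples was amplified with the Ovation PicoSL WTA System V2, biotin-labelled and hybridised to Affymetrix arrays, per the labels. Per the submitters' processing notes, the authors ran RMA in the Affymetrix Expression Console (1.4.1.46). RMA subtracts background, equalises the arrays' distributions and gives 1 log2 signal per probe set, and these signals were deposited. The array's genome build is not given in the sources used here, and probe sets were named from the platform table, with symbols updated to GRCm38.p6. Of 65956 probe sets, 30604 carried 1 symbol, 2146 several and 33206 none. No member reached the ceiling of 19.932 or shared its values with another gene. Probes differ in response, so levels of different probe sets are no measure of relative abundance. The levels served to filter, to choose which genes to name and to set the cut of 7 for marker-rich arrays. That cut depends on the probe sets of a list: the lowest liver mean, 7.003, also lay above it. The number of arrays limits the precision.

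In limma 3.58.1 (R 4.3.3), a model with 1 mean per group used the 20 arrays together and left 16 residual degrees of freedom, or 17.9 after moderation. Contrasts were two-sided, and p-values were adjusted by Benjamini-Hochberg over 17993 genes. Values are log2 differences ± SE. The code was tested on simulated data. The members and lists were chosen with earlier results of these data known, so no test over a list was made. In each class and contrast the rule for named genes took the called members, at most 4 by size of change, or if none was called the 2 with the smallest p. The 2 members of a class with the highest mean and the one with the lowest, and up to 3 called genes per pathway list, were also named. Other members were named after their values were seen. The alternatives were filters, normalisations, variance models, weights, a replicate block, probe set means, a looser threshold, marker-rich arrays, a liver covariate and leaving out each array. Leaving out the arrays rich in skeletal muscle genes, and repeating the pathway and marker lists without the 7 arrays, were chosen after seeing the data. Tables and figures were made with Python 3.11.15, numpy 2.4.6, pandas 2.3.3 and matplotlib 3.10.9.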

Additional observations from a re-analysis of the deposited data

Results flagged for a closer look

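A single array stood far from the rest of its group, by Dixon's criterion, for 7 of 172 combinations of member and group, and chance alone gives about 1 in 20. The low arrays were E18.5 wild-type array 4 for Col1a1 (9.033, next 9.304), E18.5 wild-type array 1 for Fbn2 (8.698, next 8.946) and Bgn (12.667, next 12.883), E18.5 knockout array 1 for Col6a1 (7.055, next 7.57) and P0 wild-type array 3 for Des (6.195, next 7.396). The high arrays were E18.5 knockout array 5 for Thy1 (7.039, next 6.675) and P0 knockout array 1 for Timp1 (8.179, next 6.976). For Timp3, the knockout arrays all lay below the wild-type mean at E18.5 and all above it at P0, a difference of 0.359 between the genotype effects that did not pass the interaction test in limma (adjusted p = 0.862).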

How the results depend on the processing

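The count of members called higher at P0 in wild types (8) was 5 with no signal filter, 5 with the liver marker mean as a covariate and 1 without the 7 arrays rich in muscle or intestinal genes, and 3 to 9 when each array was left out in turn. In knockouts (24) it was 0 without those 7 arrays, which leaves 2 E18.5 and 4 P0 knockout arrays, 16 without the arrays rich in skeletal muscle genes, and 20 to 27 when each array was left out. Of the wild types, leaving out those 7 arrays leaves E18.5 arrays 1 and 3 and all P0 arrays. The genotype contrasts and the interaction gave 0 members in every setting run. Mfap5 kept its wild-type call in 34 of 34 settings, Lama2 and Nid1 in 33, and Lamc1 in 11. The settings are not equally strict. Each of these genes had 1 probe set, so probe set means left its values unchanged, and the looser threshold can only add calls. Leaving out a knockout array left the wild-type differences themselves unchanged. Deviations of same-numbered arrays correlated at -0.305 to 0.245 (median 0.031) over 27 pairs, of which 8 were over 0.1; the E18.5 pairs of wild type and knockout were at 0.09, 0.18, 0.124 and 0.229. Not every pair was over 0.1 in any comparison, so the numbers were not taken as pairs. With replicate number as a block the counts were 4 in wild types and 23 in knockouts. The fit to the arrays compared alone was not run for the averaged and interaction contrasts, which use all 20.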
